A study of Rattus norvegicus with 12 samples.

Results

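miR-181b-1* (rno-miR-181b-1* in the deposited tables) is the star strand of the rat precursor mir-181b-1, that is, the strand of the cut hairpin that was named as the minor product. It was measured by small RNA sequencing of primary Kupffer cells, macrophages that live in the sinusoids of the liver. It was chosen as the entry with that name in both deposited tables of miRNA levels, and is 1 of 30 miRNAs in the table of basal cells and 1 of 3 in the table of HA35 treatment, all 3 of which are in the basal table as well. The authors had selected both tables in these same libraries, keeping miRNAs lower in ethanol-fed cells or higher with HA35. The basal table is labelled by fold change and the HA35 table by p-value. Every miRNA listed differs by 2-fold or more in its table. The direction of both differences, and the presence of the miRNA, therefore come from the selection. They are described here without a test.

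The cells came from adult male Wistar rats that either took a liquid diet with ethanol for 4 weeks or were pair-fed the same diet with maltose dextrins in place of ethanol. After 18 h of culture, the cells were left untreated (basal) or were treated with 100 µg/ml HA35, a hyaluronic acid of 35 kD average size, for 5 h. Each of the 4 groups, which were pair-fed basal, pair-fed HA35, ethanol-fed basal and ethanol-fed HA35, had 3 libraries labelled day 1 to day 3, and the labels do not say whether a day is a single rat or a pool. The 3 pair-fed HA35 libraries have no value of miR-181b-1* in the tables used here, so HA35 against basal within pair-fed rats was not analysed here. None of the 5 leukocyte or macrophage miRNAs, such as miR-223 and miR-142, is in the selected tables, so the cell type could not be checked from them.

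A miRNA binds a target transcript through its seed, bases 2 to 8 from its 5′ end. As a rule one strand of the duplex is kept in the silencing complex and the star strand is degraded, although some star strands are kept and silence targets of their own. The miR-181 family is best known in lymphocytes, where it tunes receptor signaling, and in endothelial cells, where miR-181b-5p restrains NF-κB signaling through importin-α3. Importins of the α class carry proteins such as p65 of NF-κB into the nucleus. Citing earlier work, the paper states that ethanol feeding lowered miR181b-3p in Kupffer cells, which raised importin-α5, and that HA35 normalized this pathway. By its account that work sequenced Kupffer cell miRNAs and focused on those lowered by ethanol. The paper does not state whether the libraries were the same, so the earlier result cannot be taken as independent of the values here. Importins were not measured here. The paper itself analysed miRNAs raised by ethanol feeding and brought back by HA35, which is the opposite direction to miR-181b-1*. It did so in view of the part of miRNAs in the response of TLR4 to endotoxin.

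The strands of the precursor are shown first because they carry different seeds and would thus read different targets. The sequences were taken from RefSeq (GRCr8), which lists a pair of products for mir-181b-1 on chromosome 13. Only the 3p product has the precursor number in its name, because the 5p product is shared with mir-181b-2, and miR-181b-1* was matched to it on that ground. Capitals mark the seed.
rno-miR-181b-1-3p: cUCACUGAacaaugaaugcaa
rno-miR-181b-5p: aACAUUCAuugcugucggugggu

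The seeds of the strands differ at 3 of 7 positions. Over 9 bases the strands are exact Watson-Crick complements, bases 10 to 18 of the 3p strand against bases 3 to 11 of the 5p strand, shown here in capitals because this stretch is the core of the duplex from which the star strand is released.
rno-miR-181b-1-3p: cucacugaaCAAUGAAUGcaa
rno-miR-181b-5p: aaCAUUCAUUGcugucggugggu

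The complementary stretch holds most of the 5p seed and none of the 3p seed. The star strands of the family have diverged more than the 5p strands, and the 3p strands are therefore shown together, with the seed in capitals.
rno-miR-181a-1-3p: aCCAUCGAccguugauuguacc
rno-miR-181a-2-3p: aCCACCAAccguugacugu
rno-miR-181c-3p: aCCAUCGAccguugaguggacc
rno-miR-181d-3p: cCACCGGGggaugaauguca

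The 5p strands of miR-181a, b, c and d listed in RefSeq share 1 seed, ACAUUCA, which is the reason for treating them as a family. The miR-181b-1-3p seed differs from those of miR-181a-1-3p, miR-181a-2-3p and miR-181c-3p at 3 positions each and from that of miR-181d-3p at 5. Among 693 mature rat miRNA names in the RefSeq table no other had its seed. At 1 position of the seed 2 names differed, miR-3587 and miR-653-3p, and 1 of these 2 shared bases 2 to 7. No other product of the family is in either table, so whether the 5p strand or the neighbouring mir-181a-1 moved with miR-181b-1* was not analysed here.

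In basal Kupffer cells, miR-181b-1* was lower after ethanol feeding in every library. Its normalized log2 value, from which the authors subtracted the median of the 6 basal libraries, was 0.92, 0.50 and 1.35 in pair-fed libraries of days 1, 2 and 3 and -0.50, -0.66 and -2.20 in ethanol-fed libraries of the same days. The groups did not overlap, and the highest ethanol-fed library lay 1.01 below the lowest pair-fed library on the log2 scale. The group means were 0.93 ± 0.42 (SD, n = 3) and -1.12 ± 0.94 (SD, n = 3). The difference of -2.05 had a standard error of 0.60, and left ethanol-fed cells with 24.2% of the pair-fed level on the log2 mean. Within days it was -1.43, -1.16 and -3.56, so that day 3 stood apart through both the highest pair-fed and the lowest ethanol-fed value. Without day 3 the difference was -1.29, and without ethanol-fed replicate 3 alone it was -1.51.

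The ethanol-fed basal libraries stand in both tables, and their values of miR-181b-1* differ between the tables by a constant of 0.56 in all 3 libraries (within a tolerance of 1e-06). The HA35 libraries were put on the basal scale with that constant. On this scale miR-181b-1* in Kupffer cells from ethanol-fed rats was 0.31, 0.82 and -0.61 with HA35 on days 1, 2 and 3, with a mean of 0.17 ± 0.72 (SD, n = 3). Within each day the HA35 library was higher than its basal counterpart, by 0.81, 1.48 and 1.60. The groups did overlap, as the HA35 library of day 3 lay below the basal library of day 1, by a difference of -0.10, and 8 of the 9 pairs of an HA35 and a basal library had the higher value with HA35. The difference of means was 1.29 with a standard error of 0.69 (0.24 over the within-day differences), and was 0.75 without ethanol-fed basal replicate 3. The ethanol and the HA35 difference share the 3 ethanol-fed basal libraries, and any low value in them enlarges both. The size of the HA35 difference was 63.2% of that of the ethanol difference, a ratio that rests on the same libraries.

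**Figure D1:**
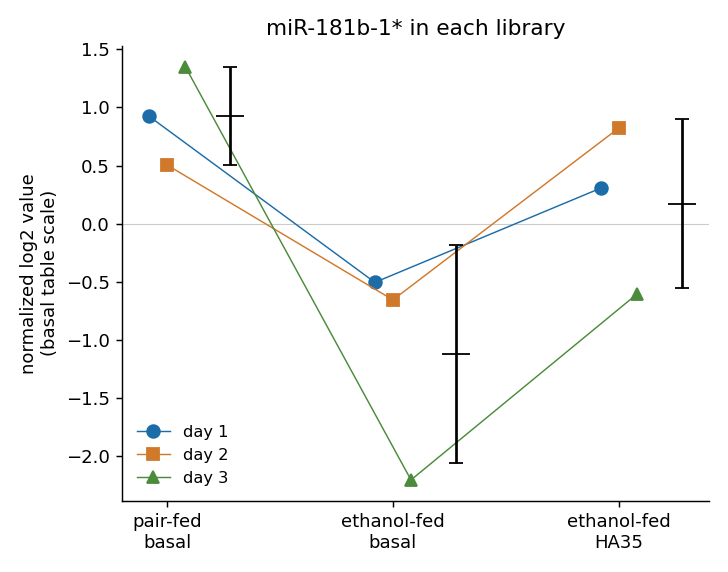
Normalized log2 value of miR-181b-1* (y axis, basal table scale) in the 9 libraries of the 3 groups with values. Symbols and lines join libraries of one day, and bars are mean ± SD (n = 3). The ethanol-fed basal libraries (-2.20 to -0.50) lie below all pair-fed libraries (0.50 to 1.35), and the HA35 libraries (-0.61 to 0.82) overlap both groups.

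Ordered by group mean, the level was highest in pair-fed basal, intermediate in ethanol-fed HA35 and lowest in ethanol-fed basal cells. Neighbouring groups in this order overlapped when the day was ignored. Within days, HA35 was above basal on all 3 days, whereas its position against pair-fed cells changed with the day. With HA35, miR-181b-1* was -0.75 from its pair-fed basal mean with a standard error of 0.48, and 8 of 9 pairs of libraries had the lower value with HA35. Within days the difference was -0.62, 0.32 and -1.96 on days 1, 2 and 3, with a standard error of 0.66 over them, and the exception among the pairs was that of day 2. The level as a percent of the pair-fed mean was 65.0%, 93.0% and 34.5% in the HA35 libraries of days 1, 2 and 3, against 37.1%, 33.4% and 11.4% in the ethanol-fed basal libraries. The HA35 library of day 2 thus lay within the pair-fed range and that of day 3 within the ethanol-fed range. Without day 3 the difference from pair-fed was -0.15, and without day 2 it was -1.29. The pair-fed and HA35 values come from tables that were centred separately, so this level rests on the joining constant and no test was made across them.

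**Figure D2:**
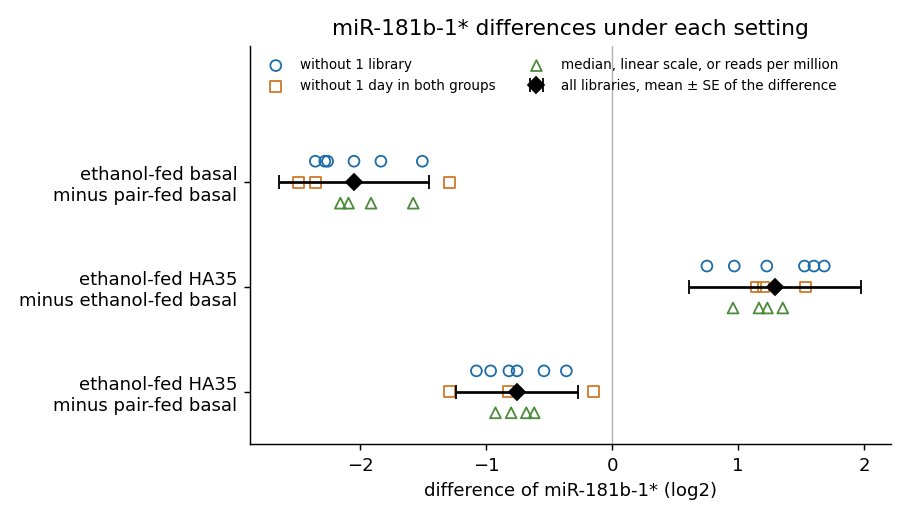
The 3 differences of miR-181b-1* (x axis, log2) with all libraries (diamonds, ± SE of the difference), without 1 library (circles), without 1 day in both groups (squares) and with medians, a linear scale or reads scaled to depth (triangles). The signs are the same throughout, and the ethanol-fed HA35 difference from pair-fed comes nearest to 0, at -0.15 without day 3.

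The tables give no reads, but the deposited values hold them. In 11 of the 30 miRNAs of the basal table the lowest value was read as a floor, which 7 of the 11 hold in more than 1 library, and the levels above it in each library are whole multiples of a step, the level of 1 read. With these steps, the values of 29 of the 30 miRNAs correspond to whole reads, to within 0.01 read. For miR-181b-1* the fit is whole to within 3.6e-06 read over the basal libraries, and the HA35 libraries are whole to within 1.1e-06 read. The smallest whole numbers that give its values are 20, 29 and 28 reads in pair-fed basal libraries and 9, 5 and 2 reads in ethanol-fed basal libraries. In the ethanol-fed HA35 libraries they are 11, 30 and 6 reads. A common multiple of all 9 would give the same values. The level of 1 read fell with the depth of the library, from 1.52 in ethanol-fed basal replicate 2, with 1630301 aligned reads, to 0.586 in pair-fed basal replicate 2, with 3805958.

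The counting error of miR-181b-1* is therefore large and unequal. The 2 reads of ethanol-fed replicate 3 have a 95% Poisson interval of 0.24 to 7.22 reads, and the 9 and 5 reads of replicates 1 and 2 have intervals of 4.12 to 17.1 and 1.62 to 11.7. On the normalized scale, on which the floor is 1, the upper ends of the intervals of replicates 1, 2 and 3 are 16.01, 17.7 and 9.39. The pair-fed intervals begin at 13.9, 11.4 and 20.3 on that scale for replicates 1, 2 and 3. Only the interval of ethanol-fed replicate 3 thus lies below every pair-fed interval, and those of replicates 1 and 2 overlap the intervals of pair-fed replicates 1 and 2. Within days, the pair-fed level was 2.69-fold (1.17 to 6.71), 2.23-fold (0.86 to 7.39) and 11.8-fold (2.96 to 102) the ethanol-fed level on days 1, 2 and 3 (95% exact intervals). The interval of day 2 includes 1. These intervals cover counting error only, and reads amplified by PCR are not independent molecules. The selection used this contrast, so an interval without 1 is no test of it.

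Relative to depth, miR-181b-1* was at 9.57, 7.62 and 14.0 reads per 1000000 aligned reads (RPM) in pair-fed basal libraries. It was at 3.60, 3.07 and 1.04 RPM in ethanol-fed basal libraries and at 6.34, 9.42 and 3.21 RPM in ethanol-fed HA35 libraries. The order of the groups is that of the authors' normalized values, and the groups that did not overlap there do not overlap here. Summed over the 3 libraries of a group, 77 of 7903238 aligned reads in pair-fed cells stand against 16 of 6058234 in ethanol-fed cells. The pair-fed rate was 3.69 times the ethanol-fed rate (95% exact interval 2.13 to 6.77, counting error only). With HA35 there were 47 of 6785824 aligned reads, 2.62 times the ethanol-fed basal rate (1.46 to 4.95). The intervals of these summed rates leave out the spread between libraries. As the selection used the same contrasts, they are no test of a difference. On single days the HA35 level was 1.75-fold (0.66 to 4.79), 2.78-fold (1.07 to 9.19) and 3.02-fold (0.54 to 30.6) the basal level, so that on days 1 and 3 the interval includes 1. In day 2, the most deeply aligned of the HA35 libraries, 30 reads stand against 5. The HA35 library of day 1, the source of 11 reads, also lost 50.1% of its reads as too short, where the other libraries lost 5.15% to 25.9%, and the part of this in the level was not tested. Without it the HA35 difference was 1.23.

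**Figure D3:**
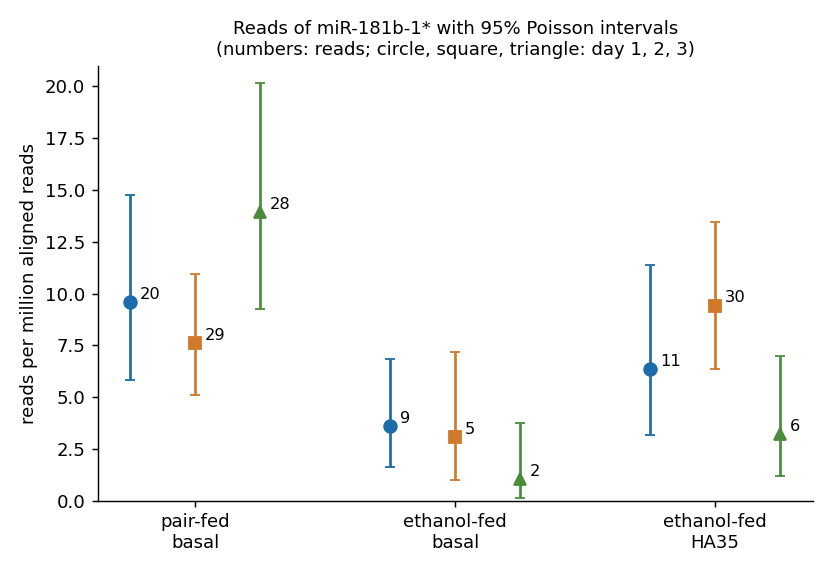
Reads of miR-181b-1* per 1000000 aligned reads (RPM, y axis) in each of the 9 libraries, with 95% Poisson intervals as bars and the number of reads beside each point. Circles, squares and triangles are days 1, 2 and 3. The ethanol-fed basal libraries rest on 9, 5 and 2 reads, and the triangle at 2 reads is the lowest point.

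Across all 12 libraries the total was 2865329 to 6151744 reads, of which 1605192 to 3805958 aligned. These made up 45.5% to 61.9% in pair-fed basal, 50.4% to 56.9% in ethanol-fed basal and 30.3% to 67.6% in ethanol-fed HA35 libraries.

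Within the basal table, the difference of miR-181b-1* was the second largest of 30, after miR-152* at -2.30, where the median of the 30 was -1.303. This place is approximate, because 11 of the 30, among them miR-152*, are at the floor in at least 1 library, where the floor limits how far a value can fall. It was also the 5th largest without pair-fed replicate 2 and the 10th without pair-fed replicate 3. In 7 of the 30 miRNAs (23.3%) the ethanol-fed libraries all lay below the pair-fed libraries. The others were miR-152*, miR-126, miR-10a-5p, miR-455*, miR-23b and miR-27b*. The gap between the groups was 1.22 for miR-152*, 1.01 for miR-181b-1* and at most 0.28 for the other 5. On each of the 3 days, 14 of the 30 miRNAs (46.7%) were lower after ethanol. As the table was selected by fold in these libraries, these counts describe the list and are no background of unselected miRNAs. miR-181b-1* differed by -2.81 in units of its pooled SD within groups, against a median of -1.22 in the other 29, and its pooled SD of 0.73 compares with a median of 1.08. The difference between groups made up 74.7% of its sum of squares over the 6 libraries, against a median of 35.8% in the others. For miR-152*, at the floor in 2 libraries, the share was 89.5%, the difference -4.76 in pooled SD units and the pooled SD 0.48.

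**Figure D4:**
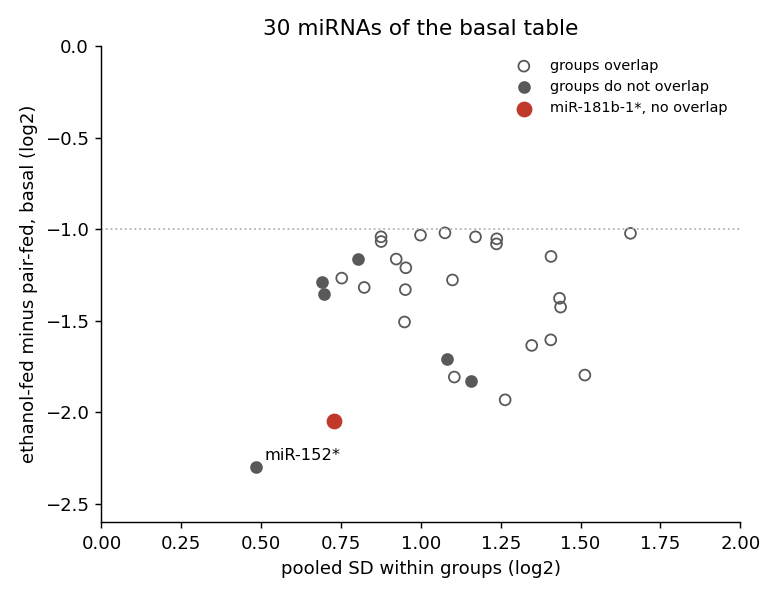
Difference between ethanol-fed and pair-fed basal means (y axis, log2) against the pooled SD within groups (x axis, log2) for the 30 miRNAs of the basal table. Filled points are miRNAs whose groups do not overlap, and the dotted line marks the 2-fold selection at -1. miR-181b-1* (-2.05, SD 0.73) and miR-152* (-2.30) lie apart at the lower left.

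miR-181b-1* did not follow the library pattern of most of the list. In 25 of the 30 miRNAs pair-fed replicate 1 was the highest of the 6 basal libraries, whereas miR-181b-1* was highest in pair-fed replicate 3. It shared this with miR-3559-3p, miR-741-3p and miR-541, so that 4 of the 30 were highest there. In pair-fed replicate 1 its value of 0.92 ranked 25th of 30, where the median of the others was 1.99. In pair-fed replicate 3 its 1.35 ranked 4th, with a median of 0.33 in the others. In ethanol-fed replicate 3 its -2.20 was the lowest of the 30, with a median of -0.06 in the others and -1.87 as the next lowest value. Each value is relative to the median of its own miRNA, so these ranks compare deviations and not abundance. Leaving out pair-fed replicate 1 reduced the median difference of the 30 miRNAs to -0.81 and left that of miR-181b-1* at -2.05. Leaving out ethanol-fed replicate 3 instead left the median at -1.44 and moved miR-181b-1* to -1.51, from the second to the 14th place.

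The pattern of each other miRNA was compared with that of miR-181b-1* over the 6 basal libraries, as a description, because the 29 miRNAs were chosen by the same contrast and share libraries. The most alike were miR-152* (Pearson r = 0.85), miR-3559-3p (r = 0.75) and miR-27b* (r = 0.73). The least alike were miR-455 (r = 0.30), miR-201 (r = 0.22) and miR-214 (r = 0.05), and the last of these is transcribed together with miR-199a and is known from hepatic stellate cells. All 29 correlations were above 0, with a median of 0.49. After the mean of each group was subtracted, 7 of the 29 were above 0 and the median was -0.14, with miR-152* at 0.23, miR-27b* at 0.22 and miR-3559-3p at 0.50. miR-152* rests on few reads, at 7, 11 and 4 in pair-fed and 2 in ethanol-fed replicate 1, with the other ethanol-fed libraries at the floor. miR-3559-3p had 4, 5 and 5 reads in pair-fed libraries and 3 in ethanol-fed replicate 2, with the other ethanol-fed libraries at the floor. miR-27b* was better covered, with 101, 56 and 54 reads in pair-fed and 20, 21 and 17 in ethanol-fed libraries.

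**Figure D5:**
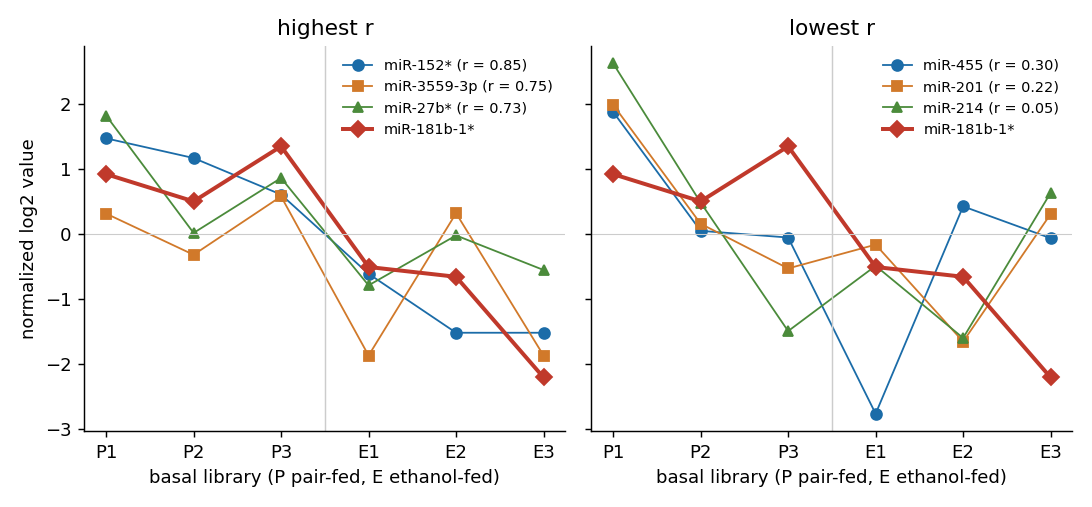
Normalized log2 value (y axis) in the 6 basal libraries (P, pair-fed, and E, ethanol-fed, with the day) of miR-181b-1* in red and of the 3 miRNAs with the highest (left) and the lowest (right) Pearson r with it. Lines only join the points of a miRNA. miR-181b-1* peaks in P3 and is lowest in E3, whereas miR-214 is highest in P1 and above 0 in E3.

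The HA35 table holds miR-362 and miR-34a* besides miR-181b-1*, the latter of the 2 from a precursor that p53 induces. All 3 (100%) were higher with HA35 on each day, a direction that the selection favours, and in none of the 3 (0%) were the groups apart. miR-362 had 17, 1 and 3 reads in ethanol-fed basal and 23, 8 and 5 in ethanol-fed HA35 libraries, and its difference was 1.20. miR-34a* had 7, 1 and 3 reads in ethanol-fed basal and 5, 9 and 6 with HA35, and its difference was 1.04. On day 1 the centred log2 value of miR-34a* was 0.06 with HA35 and 0.02 in basal cells, from 5 and 7 reads. Both miR-362 and miR-34a* have 1 read in ethanol-fed basal replicate 2, their lowest library, while miR-181b-1* has its lowest value in replicate 3. Summed over a group, miR-181b-1* went from 16 to 47 reads without scaling for depth, miR-362 went from 21 to 36 and miR-34a* from 11 to 20.

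Of 19 miRNAs described as acting on TLR or NF-κB signaling or induced by it, 5 have a product in the basal table, 6 products in all. The share of all measured miRNAs that are in the table was not counted here, so the 5 of 19 only describe the list. Every product there is at least 2-fold lower by selection. The median was -1.62 in these 6, which include miR-181b-1* itself and both products of miR-199a, and -1.303 in all 30. After miR-181b-1*, the largest differences were those of miR-199a-3p at -1.80, miR-145 at -1.63 and miR-199a-5p at -1.60, which are mesenchymal miRNAs as well. Their groups overlapped. Of miRNAs typical of other liver cells, none of the 3 of hepatocytes is in the basal table, while those of endothelial and mesenchymal cells are. The 2 products of miR-126, an endothelial miRNA, summed to 12204 to 81737 normalized reads in pair-fed and 3717 to 12736 in ethanol-fed basal libraries, and the groups overlapped. The 6 products of 4 mesenchymal miRNAs summed to 2933 to 20997 in pair-fed and 911 to 6370 in ethanol-fed basal libraries, which overlapped as well. Their part in the level of miR-181b-1* was not tested.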

How the data were processed

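Small RNA libraries of rat Kupffer cells were sequenced by the authors and analysed with small RNA software (version 2.5.1) on the rat build rn4. HTSeq and DESeq are named in the submitters' processing notes, without a version. The deposited values are normalized log2 values from which the authors subtracted the median of each miRNA over the 6 libraries of a table. They cover miRNAs the authors had selected, all with a fold change of at least 2, and the HA35 table is labelled by p-value. Other deposited columns hold the fold changes and p-values of the authors' own comparisons and were not used. The deposited alignment report gives total, aligned and too-short read counts of the 12 libraries.

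Groups and days were taken from the labels. Days were taken to pair libraries because the labels name them. The deviations of same-day pair-fed and ethanol-fed basal libraries from their group means correlated at -0.28, -0.39 and -0.35 over 30 miRNAs. Differences are of means of log2 values, with the standard error of the difference. No p-value was computed, because the selection used these contrasts. The HA35 table was placed on the basal scale through the ethanol-fed basal libraries. For miRNAs without a floor, whole reads were searched for up to 20000 reads in the library with the fewest, with a tolerance of 0.01 read. In repeated runs over 23 miRNAs of the basal table, 230 rows of reads were simulated. Of these, 98.3% were recovered exactly and 100% up to a common factor. The 23 were miRNAs whose reads had already been recovered. miR-10a-5p, which was not solved, and the miRNAs with the most reads were left out, and no HA35 library was simulated. Reads were drawn at the means only for miRNAs without a floor. Those with a floor kept their recovered reads and still count in the rate, so it is raised by them. The rate does not test them, the steps fitted from them or the reads of the HA35 libraries. Intervals are 95% exact Poisson intervals for reads and exact conditional intervals for ratios. The depth behind each value limits them, and nothing shows whether a day is a separate rat.

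The miRNA, the lists and the named miRNAs (the 3 most and 3 least alike by Pearson r, the other miRNAs of the HA35 table, and miR-181 family and TLR list members, of which up to 4 are named) were chosen with earlier results of these data known. miR-126, miR-10a-5p, miR-455* and miR-23b were named after their values were seen. Recovered reads, their RPM values and leaving out a day were chosen after seeing the data. The other alternatives tried were leaving out each library, the median, a linear scale, the day as a block, the joining constant of each day, Spearman's correlation, subtraction of group means and leaving out miRNAs with tied lowest values. Python 3.11.15, numpy 2.4.6, pandas 2.3.3, scipy 1.17.1 and matplotlib 3.10.9 were used. RefSeq sequences are of GRCr8, not of rn4, and are given without coordinates.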

Additional observations from a re-analysis of the deposited data

How the results depend on the processing

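Under the alternatives tried, the 3 differences of miR-181b-1* kept their signs. The ethanol difference ranged from -2.49 to -1.29, with -1.29 without day 3 in both groups. The HA35 difference ranged from 0.75 to 1.68. The difference between HA35 and pair-fed basal libraries ranged from -1.29 without day 2 to -0.15 without day 3, and was -0.36 without ethanol-fed HA35 replicate 3. With the day as a block the differences were the same, with standard errors of 0.76, 0.24 and 0.66 in place of 0.60, 0.69 and 0.48. The number of miRNAs whose groups did not overlap was 7 with all libraries, and 8 to 16 with 1 library left out, where fewer libraries have to be apart. Pairing by day, 14 were lower on each day. The likeness of miR-152* was 0.85, was 0.81 by Spearman's correlation and 0.84 to 0.90 with 1 library left out, and fell to 0.23 with group means subtracted. With group means subtracted the correlations of miR-455, miR-201 and miR-214 turned to -0.35, -0.44 and -0.53. With 1 library left out, miR-201 ranged from -0.17 to 0.52 and miR-214 from -0.46 to 0.42, both lowest without pair-fed replicate 1, and the cause was not tested. The fewest reads of miR-181b-1* were the 2 in ethanol-fed basal replicate 3, whereas replicate 2 of that group, with 5, was the shallowest of the 9 libraries.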

Other observations

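Low read numbers were common in the basal table. Of the 29 miRNAs whose reads could be recovered, 16 had 5 or fewer reads in at least 1 ethanol-fed library, and 11 of the 30 miRNAs were at the floor in at least 1 library. Summed over the 6 basal libraries, miR-181b-1* had 93 reads, close to the median of 95, with 13 of the 29 below it and 15 above.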
